A study of Mus musculus with 8 samples.

Results

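Described here are *Kcnk9* and its relatives among the two-pore domain potassium channels, found by their symbols in the count tables of all 8 RNA-seq libraries. They are *Kcnk1*, *Kcnk2*, *Kcnk3*, *Kcnk4*, *Kcnk5*, *Kcnk6*, *Kcnk9*, *Kcnk10*, *Kcnk12* and *Kcnk13*, 10 of the 26263 genes counted. The libraries compare mouse embryonic stem cells (ESCs) with neural precursor cells (NPCs) derived from them by 12 days of *in vitro* corticogenesis. Both stages were made from F1 hybrids of the reciprocal crosses, C57BL/6 x JF1 (B/J, line ES_BJE2) and JF1 x C57BL/6 (J/B, line ES_JBE6), with 2 replicates in each of the 4 groups and no other treatment or allele. Each cross is thus 1 male line, so that a difference between the crosses cannot be told apart from a difference between lines. ESCs were kept with LIF, BMP4 and an inhibitor of GSK3-β, whereas the NPC medium held B27 and dorsomorphin homolog 1 on Matrigel, so that medium and stage change together. No source says that the 2 replicates of a group were separate differentiations, and p-values measure the spread between these libraries.

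Two-pore channels carry the background potassium current that is open at rest and holds the membrane potential of a cell negative. Each subunit has a pair of pore domains, and subunits assemble as dimers. *Kcnk9* encodes TASK-3, an acid-sensitive channel of central neurons, and is expressed from the maternal allele in brain, where maternally inherited mutations of the human gene cause Birk-Barel syndrome. The relatives are grouped by what gates them. TASK channels (*Kcnk3*, *Kcnk9*) close on extracellular acid and on signals through Gq-coupled receptors. TREK channels (*Kcnk2*, *Kcnk10*) and TRAAK (*Kcnk4*) open with membrane stretch and lipids. TWIK channels (*Kcnk1*, *Kcnk6*) are weak inward rectifiers, THIK channels (*Kcnk12*, *Kcnk13*) are inhibited by halothane, and TASK-2 (*Kcnk5*) is opened by extracellular alkali. The counts are of both parental alleles together, and imprinting was not analysed here.

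Levels are given as TMM-normalized CPM, the reads of a gene scaled to a common library size, for which TMM factors correct the library totals for differences in RNA composition. The libraries held 22537138 to 32706015 reads assigned to genes, and 3 counts, the limit that a count of 0 allows, correspond to 0.0768 to 0.16 TMM-normalized CPM. The labelled cell types were checked with lists of 10 markers each. All 10 pluripotency markers fell, from a summed level of 5044 to 7268 in ESC libraries to 184 to 383 in NPC libraries. Of the neural precursor markers 9 rose, from a sum of 103 to 207 to one of 381 to 970, and of the neuron markers 8 rose and *Stmn2* fell. Markers of other cells were also found in the NPC libraries. All 10 trophoblast markers rose, from a sum of 15.1 to 88.9 to one of 1006 to 2873, and *Tpbpa*, at 0 counts in every ESC library, was at 141 to 395 in NPC libraries. The summed fibroblast markers were at 13.5 to 93.3 in ESCs and 799 to 1935 in NPCs, with 9 of 10 higher. Endothelial markers summed to 48.0 to 124 in ESCs and 248 to 859 in NPCs (4 higher, 2 lower), of which *Cdh5* alone made up 210 to 772, endoderm markers to 6.25 to 18.5 and 68.0 to 131 (6 higher), glial markers to 58.5 to 75.7 and 34.5 to 58.9 (3 higher, 3 lower), and macrophage and microglia markers to 15.3 to 19.9 and 21.7 to 30.3 (3 higher, 2 lower), with *Tyrobp* at 0 counts in every NPC library. These libraries are of whole cultures, and fewer cells of a type cannot be told apart from less RNA per cell. The part of these cells in any change given here was not tested.

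The members are spread over 9 chromosomes of the mouse, and in the GENCODE vM39 annotation of GRCm39 *Kcnk9* covers chr15:72372938-72419556 on the minus strand as 1 transcript of 2 exons, 13.7 kb long. It is the longest exon sequence of the 10 genes, against 2.53 kb for *Kcnk1* and 3.43 kb for *Kcnk5*, and no annotated exon of another gene overlaps it. *Kcnk10* (chr12:98395696-98544569, minus strand, 8.77 kb of exon) and *Kcnk13* (chr12:99924948-100028942, plus strand) are neighbours on the same chromosome. *Kcnk2* lies at chr1:188940126-189134470 and *Kcnk5* at chr14:20190125-20231900, both on the minus strand. *Kcnk5* also has a family member beside it, *Kcnk16* (chr14:20311444-20319267). *Kcnk4* (chr19:6901334-6911883, minus strand) shares 587 bp of its 4808 bp of exon with *Catsperz* on the same strand and 379 bp with *Gm59185* on the other, and the sources used here do not say how such reads were counted. The remaining genes are *Kcnk1* at chr8:126721842-126757440, *Kcnk3* at chr5:30745243-30783689, *Kcnk6* at chr7:28921346-28932035 and *Kcnk12* at chr17:88049106-88105511. Exons of *Kcnk1*, *Kcnk2* and *Kcnk3* overlap a gene on the opposite strand over 179, 729 and 229 bp.

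Promoter windows of 300 bases, from 250 before to 50 after an annotated start, were held by the RefSeq table of build GRCm38.p6 for 7 of the 10 genes, in 11 windows. Shown are those of 3 genes that rose between the stages (*Kcnk2*, at the start with the highest share of G and C, *Kcnk10*, at both of its starts, and *Kcnk12*) and that of *Kcnk5*, the gene with the highest level per kb of exon. They are written 5′ to 3′ on the strand of the gene, and capitals mark GGGCGG, the core of a GC box, on either strand (as CCGCCC on the other). Positions are those of GRCm38.p6 and cannot be set against the GRCm39 positions above.
*Kcnk2* start 3, chr1:189343658-189343957, minus strand: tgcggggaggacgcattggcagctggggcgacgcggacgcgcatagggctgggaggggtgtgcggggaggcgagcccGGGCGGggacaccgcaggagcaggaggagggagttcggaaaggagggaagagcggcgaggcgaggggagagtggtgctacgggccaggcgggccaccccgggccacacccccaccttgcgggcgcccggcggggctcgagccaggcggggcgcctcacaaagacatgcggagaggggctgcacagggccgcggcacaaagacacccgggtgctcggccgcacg
*Kcnk10* start 1, chr12:98578164-98578463, minus strand: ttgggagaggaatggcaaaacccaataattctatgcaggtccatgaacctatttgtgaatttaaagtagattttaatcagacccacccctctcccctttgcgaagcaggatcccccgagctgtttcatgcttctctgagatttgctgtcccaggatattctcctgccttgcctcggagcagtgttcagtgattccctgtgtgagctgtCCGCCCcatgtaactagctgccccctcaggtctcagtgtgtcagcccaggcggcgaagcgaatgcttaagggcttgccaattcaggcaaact
*Kcnk10* start 2, chr12:98575078-98575377, minus strand: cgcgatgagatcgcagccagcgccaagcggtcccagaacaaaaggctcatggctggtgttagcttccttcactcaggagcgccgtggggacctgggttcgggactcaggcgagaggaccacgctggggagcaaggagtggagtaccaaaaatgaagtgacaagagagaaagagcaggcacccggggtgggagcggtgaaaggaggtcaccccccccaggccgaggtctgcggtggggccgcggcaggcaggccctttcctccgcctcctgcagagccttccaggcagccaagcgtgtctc
*Kcnk12* start 1, chr17:87797945-87798244, minus strand: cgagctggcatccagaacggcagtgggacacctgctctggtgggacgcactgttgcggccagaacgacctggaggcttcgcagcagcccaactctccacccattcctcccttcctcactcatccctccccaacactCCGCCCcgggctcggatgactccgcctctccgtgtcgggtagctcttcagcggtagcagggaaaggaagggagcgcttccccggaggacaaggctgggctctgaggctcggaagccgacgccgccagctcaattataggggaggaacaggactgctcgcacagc
*Kcnk5* start 1, chr14:20181733-20182032, minus strand: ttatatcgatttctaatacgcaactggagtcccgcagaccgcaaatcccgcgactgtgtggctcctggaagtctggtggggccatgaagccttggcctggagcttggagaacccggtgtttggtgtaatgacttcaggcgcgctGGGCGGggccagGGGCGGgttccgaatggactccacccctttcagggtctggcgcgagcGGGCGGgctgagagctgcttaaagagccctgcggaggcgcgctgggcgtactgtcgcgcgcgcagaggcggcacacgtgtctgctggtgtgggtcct

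The windows differed in base composition. The *Kcnk2* window held 74.7% G and C and 33 CG dinucleotides, the *Kcnk5* window 63.7% and 26, the *Kcnk12* window 64.3% and 20, and those of *Kcnk10* 51.0% and 7 at start 1 and 64.3% and 18 at start 2. The median over all 32851 windows of the table was 52.7% with 7 CG dinucleotides, so that start 1 of *Kcnk10* was close to the median window and the other 4 were above it. GGGCGG was found 3 times in the *Kcnk5* window and once each in those of *Kcnk2* start 3, *Kcnk10* start 1 and *Kcnk12*, and it is held by 35.7% of all windows. The letters TATAAA, held by 13.6% of all windows on either strand, were in none of the 11 windows, and CANNTG, the E-box consensus, held by 72.3%, was in neither window of *Kcnk10* and 2 times in that of *Kcnk5*. These matches are descriptions of the letters alone.

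Between ESCs and NPCs *Kcnk9*, *Kcnk10*, *Kcnk2*, *Kcnk3* and *Kcnk12* rose, *Kcnk5* and *Kcnk4* fell, and *Kcnk1* and *Kcnk6* did not pass the test (edgeR's quasi-likelihood test, Benjamini-Hochberg adjusted p below 0.05 over all genes tested). Of the 10 genes 9 passed the filter on low counts, and *Kcnk13* did not. The background is high in this comparison, since 37.5% of the 16399 genes tested rose and 31.9% fell. The median log2 fold change of the 9 genes was 1.96, and that of all genes tested 0.17. The scaling sets this zero point. The median of all genes was 0.65 with library totals and 0.80 when scaled to *Gapdh*, *Gusb* and *Tbp*, and under both the 5 rises passed the test while the falls of *Kcnk4* and *Kcnk5* did not. Rises made up 54.0% of all calls under TMM, 70.1% under library totals and 75.0% under the 3 reference genes.

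In every NPC library the same 5 genes were above every ESC library, which was so for 35.3% of all genes tested. No member was below every ESC library in all NPC libraries, which was so for 31.2% of genes. The plot of all members by library shows both the rises and the wide spread between replicates of *Kcnk1*, *Kcnk4* and *Kcnk9*.

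**Figure D1:**
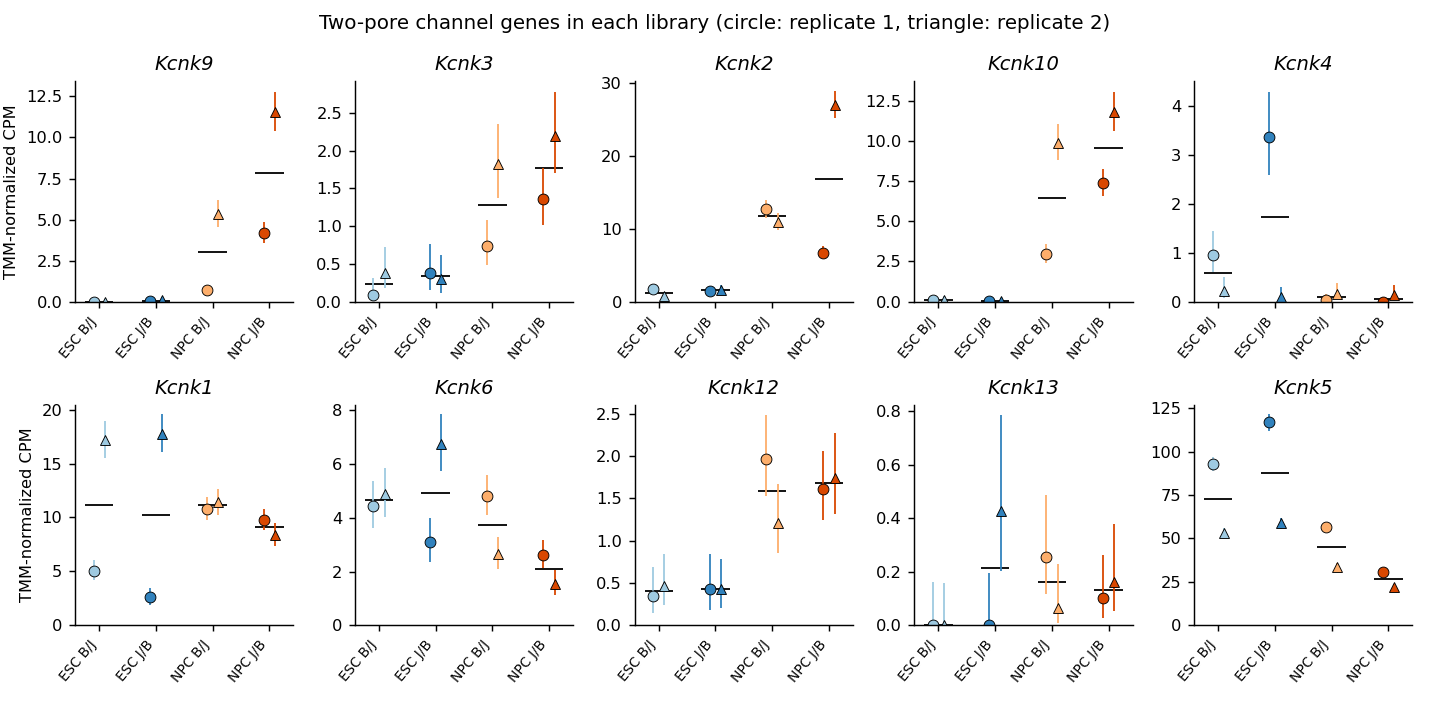
TMM-normalized CPM (linear axes starting at 0, a scale for each gene) of the 10 two-pore channel genes in ESCs and NPCs of both crosses. Circles are replicate 1 and triangles replicate 2, vertical lines are 95% exact Poisson intervals of each count and horizontal lines the mean of the 2 replicates. *Kcnk9*, *Kcnk3*, *Kcnk2*, *Kcnk10* and *Kcnk12* were higher in all 4 NPC libraries than in any ESC library, and the other 5 genes overlapped.

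*Kcnk9* went from nearly no reads to a low but measurable level. It had 0 counts in both B/J ESC libraries and 1 and 2 counts in replicates 1 and 2 of J/B ESCs. Its NPC counts were 24 and 167 for B/J and 163 and 357 for J/B. These correspond to 0.684 and 5.33 TMM-normalized CPM in B/J NPCs and to 4.17 and 11.5 in J/B NPCs. All NPC libraries were thus above all ESC libraries, with replicate 1 of B/J NPCs far below the other 3. Over both crosses the level was 0.0347 ± 0.0421 in ESCs and 5.43 ± 4.52 in NPCs (SD, n = 4 libraries). The 711 counts of NPCs against 3 of ESCs give a ratio of 154 with a 95% exact counting interval of 52.5 to 748, which covers counting error only. Within J/B the ratio was 104 (35.5 to 508), and within B/J *Kcnk9* was at least 44.5-fold higher, taking 3 counts summed over the pair of ESC libraries as the limit. The exact counting interval there starts at 35.8, and the limit rests on both NPC libraries, being 82.5-fold without replicate 1 and 10.6-fold without replicate 2. In the edgeR fit the change was 8.06 on the log2 scale (standard error 1.16, adjusted p = 9.14e-04), a value that with so few ESC counts depends on the prior count of the fit. Leaving out replicate 1 of B/J NPCs gave 8.44 (adjusted p = 4.20e-04) and leaving out replicate 2 gave 6.97 (adjusted p = 9.98e-04).

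*Kcnk3*, the closest relative of *Kcnk9* and able to form dimers with it, rose less and from a level that was already detected. It had 2, 9, 7 and 7 counts in the ESC libraries (B/J replicates 1 and 2, then J/B replicates 1 and 2) and 26, 57, 53 and 68 in the NPC libraries. Its level was 0.286 ± 0.138 TMM-normalized CPM in ESCs and 1.53 ± 0.628 in NPCs (SD, n = 4). The groups did not overlap, the highest ESC library being at 0.385 and the lowest NPC library at 0.741. edgeR gave a log2 fold change of 2.40 (standard error 0.605, edgeR adjusted p = 0.0082), with 2.41 within B/J and 2.39 within J/B (adjusted p = 0.0443 and 0.044). Each within-cross call was lost without any of 6 libraries, a set that differed between the crosses, with log2 fold changes of 1.64 to 2.43 within B/J and up to 2.67 within J/B and adjusted p of up to 0.229 and 0.173.

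Of the stretch-gated channels *Kcnk10* (TREK-2) rose most. It had 2, 3, 1 and 1 counts in ESCs, in the same order of libraries, and 104, 310, 288 and 365 in NPCs. These are 0.0426 to 0.128 TMM-normalized CPM in ESCs against 2.96, 9.90, 7.37 and 11.8 in NPCs. As for *Kcnk9*, replicate 1 of B/J NPCs was the lowest NPC library. The log2 fold change was 6.68 (standard error 0.614, edgeR adjusted p = 6.69e-05), and the ratio of pooled levels was 99.0, with a 95% exact counting interval of 47.9 to 247. Within the crosses it was 5.84 in B/J and 7.53 in J/B (adjusted p = 9.57e-04 and 6.48e-04). Within J/B the fitted rise of *Kcnk9* was 6.71 (adjusted p = 0.00668), and within B/J, with no ESC count of *Kcnk9*, its rise has only a lower limit, so that the order of the 2 genes within a cross was not decided.

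*Kcnk2* (TREK-1) rose from a low level in ESCs to one of the higher levels of the family in NPCs. It was at 1.78 and 0.727 TMM-normalized CPM in B/J ESCs, 1.49 and 1.66 in J/B ESCs, 12.7 and 10.9 in B/J NPCs and 6.73 and 27.0 in J/B NPCs. Its highest and lowest NPC levels were thus the 2 replicates of the J/B line. Its log2 fold change was 3.32 (standard error 0.515, edgeR adjusted p = 7.92e-04), with 3.23 within B/J and 3.41 within J/B. Leaving out replicate 2 of B/J ESCs left 2.73 within B/J (adjusted p = 0.0502).

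*Kcnk4* (TRAAK) went the other way, and its fall rested on a few libraries. It had 22 and 5 counts in B/J ESCs, 63 and 2 in J/B ESCs, and 1, 5, 0 and 4 in the NPC libraries. Replicate 1 of each ESC line was high and replicate 2 was not above the NPC range of 0 to 0.160 TMM-normalized CPM in J/B, at 0.0853. The log2 fold change was -3.66 (standard error 1.31, edgeR adjusted p = 0.037), and without replicate 1 of J/B ESCs it was -1.54 (adjusted p = 0.326). Leaving out any of 5 libraries ended the call, as did limma-voom (adjusted p = 0.0793). Over all single libraries left out the log2 fold change was -5.58 to -1.54. This library, replicate 1 of J/B ESCs, also had the highest summed fibroblast markers of the ESC libraries, 93.3 against 13.5 to 16.5 in the other 3, and the part of this in the result was not tested.

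The TWIK genes did not change between the stages by the test. *Kcnk1* (TWIK-1) was at 5.04 and 17.2 TMM-normalized CPM in B/J ESCs and 2.61 and 17.8 in J/B ESCs, and at 10.8, 11.4, 9.78 and 8.37 in NPCs. The NPC levels lay within the ESC range, and the ESC replicates were further apart than the stages. The log2 fold change was -0.09 (standard error 0.588, edgeR adjusted p = 0.902), and it ranged from -0.49 to 0.91 over all alternatives. *Kcnk6* (TWIK-2) was at 4.78 ± 1.51 in ESCs and 2.91 ± 1.37 in NPCs (SD, n = 4), with overlapping libraries. Its log2 fold change was -0.78 (standard error 0.392, edgeR adjusted p = 0.109). It passed the test only without replicate 1 of J/B ESCs (-1.01, adjusted p = 0.0483) and with a replicate block within each stage (-0.80, adjusted p = 0.0319).

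Of the THIK genes *Kcnk12* (THIK-2) rose and *Kcnk13* (THIK-1) stayed near the limit of detection. *Kcnk12* had 8, 11, 8 and 10 counts in ESCs and 69, 38, 63 and 54 in NPCs, or 0.418 ± 0.0513 TMM-normalized CPM against 1.63 ± 0.316 (SD, n = 4). It was the member with the smallest spread between ESC libraries relative to its mean. The rise was 1.96 on the log2 scale (standard error 0.424, edgeR adjusted p = 0.00401). The call held without each library, but within B/J it was lost when 1 of 3 libraries was left out and within J/B when 1 of 4 was. *Kcnk13* had 0 counts in 3 ESC libraries, 10 in replicate 2 of J/B ESCs, and 9, 2, 4 and 5 in NPCs. The mean log2(TMM-normalized CPM + 0.5) was 0.14 higher in NPCs, and the exact two-sided permutation p over 4 and 4 libraries was 0.657, where the smallest possible p is 0.0286.

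*Kcnk5* (TASK-2) had the highest level per kb of exon in every library and fell. It was at 92.7 and 53.0 TMM-normalized CPM in B/J ESCs, 117 and 58.7 in J/B ESCs, 56.4 and 33.7 in B/J NPCs and 31.0 and 22.2 in J/B NPCs. Replicate 1 of B/J NPCs was above replicate 2 of B/J ESCs, so that the stages overlapped, and it was below the other 3 ESC libraries. The log2 fold change was -1.21 (standard error 0.305, edgeR adjusted p = 0.00853), and it was -1.72 within J/B (adjusted p = 0.0127) but -0.69 within B/J (adjusted p = 0.199). With a replicate block, given below, the fall within B/J also passed the test. The fall over both crosses depended on the zero point, being -0.72 with library totals (adjusted p = 0.0534) and -0.58 relative to *Gapdh*, *Gusb* and *Tbp* (adjusted p = 0.077). Leaving out single libraries gave -1.42 to -0.92, and none of these ended the call over both crosses.

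Of the other 4 mouse genes of the family, *Kcnk16*, a channel known from pancreas, was the one with a change that passed the test. It had 1 count over the 4 ESC libraries and 25, 12, 48 and 10 in NPCs. Its log2 fold change was 5.87 (standard error 1.14, edgeR adjusted p = 0.00338). It lies beside *Kcnk5*, which fell. *Kcnk7* had 6 to 10 counts in each ESC library and 0 to 3 in each NPC library, *Kcnk18* 0 to 2 in any library and *Kcnk15* none, and none of these 3 passed the filter on low counts.

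Within each cross the rises were called again. Within B/J 5 of the 9 genes rose and none fell, where 30.1% of genes tested rose and 25.6% fell. Within J/B 5 rose and *Kcnk5* fell, where 29.1% rose and 25.3% fell. The 2 crosses share no libraries, but both were tested in the same fit with a shared estimate of the spread. The test of each thus drew on the libraries of the other, and the members were chosen for both together. The same 5 genes, *Kcnk2*, *Kcnk3*, *Kcnk9*, *Kcnk10* and *Kcnk12*, rose in both. When single libraries were left out, fewer members were called in most fits, as were fewer of all genes. The lowest log2 fold change of these 5 genes was then 1.56 within B/J and 1.90 within J/B, both of *Kcnk12*. The plot of the fold changes shows that the values of the crosses differ by less than a standard error for *Kcnk3*, *Kcnk2*, *Kcnk1* and *Kcnk12*.

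**Figure D2:**
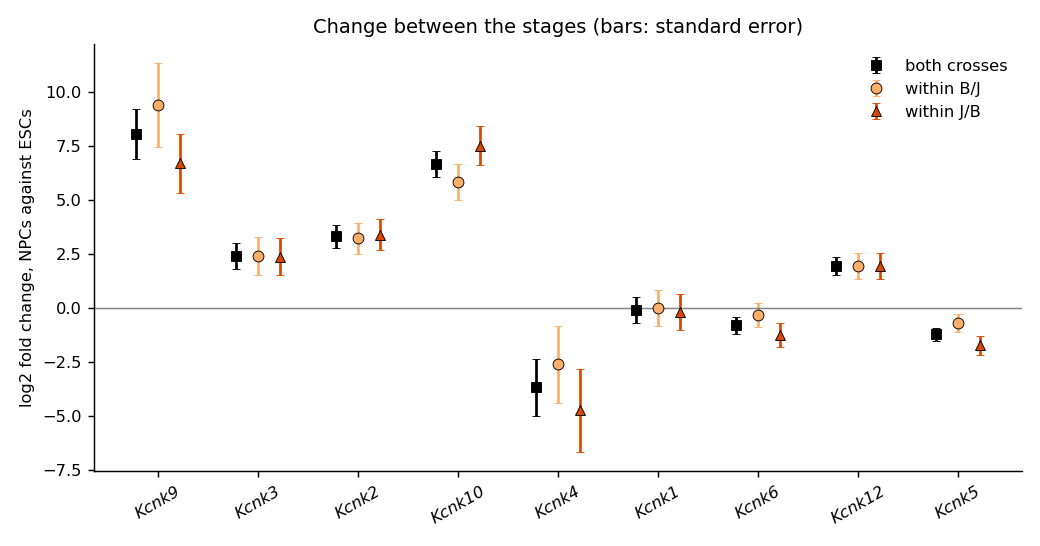
Log2 fold change of NPCs against ESCs (vertical axis) from edgeR for the 9 members that passed the filter on low counts, over both crosses (squares), within B/J (circles) and within J/B (triangles). Bars are standard errors. *Kcnk9* and *Kcnk10* lie at 5.84 or above in all 3 fits, and *Kcnk4*, *Kcnk6* and *Kcnk5* lie below 0 in all of them.

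Whether the change between the stages differed between the crosses was tested by an interaction term. No member passed it, nor did any gene tested (0% of 16399 genes; 573 had an unadjusted p below 0.05, and DESeq2 called 11 genes). The difference in log2 fold change, J/B minus B/J, was -2.69 for *Kcnk9* (standard error 2.70, a value set by the prior count since its B/J ESC libraries have no counts), 1.69 for *Kcnk10* (1.30), -1.03 for *Kcnk5* (0.604) and -0.92 for *Kcnk6* (0.781). With these standard errors differences of severalfold would not have been detected for *Kcnk9*. Levels in J/B against B/J were also compared within each stage. In ESCs no gene was called (0%; 346 at an unadjusted p below 0.05, and 10 by DESeq2). In NPCs 1 gene was called, 0.0061% of those tested, and it was no member (1050 at an unadjusted p below 0.05, and 70 by DESeq2). *Kcnk9* was at 3.01 ± 3.29 TMM-normalized CPM in B/J NPCs and 7.85 ± 5.21 in J/B NPCs (SD, n = 2), a log2 difference of 1.38 (standard error 0.965, edgeR adjusted p = 0.827). Without replicate 1 of B/J NPCs this difference was 0.54 and without replicate 2 it was 3.49, and leaving out single libraries gave 0.46 to 3.49, with no call.

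The spread between replicates was often larger than counting error, for the members as for other genes. Of 38 pairs of replicates with at least 1 count, 22 had a 95% exact counting interval that left out a ratio of 1, 9 of 18 in ESCs and 13 of 20 in NPCs. The same held for 54.7% of such pairs over all genes (53.2% in ESCs, 56.0% in NPCs), so that the members' count is near the background. *Kcnk5* was lower in replicate 2 in all 4 groups, at 0.571 and 0.503 of replicate 1 in B/J and J/B ESCs and at 0.598 and 0.716 in NPCs. *Kcnk1* in ESCs was higher in replicate 2 by a factor of 3.41 in B/J (2.77 to 4.23) and 6.80 in J/B (5.05 to 9.34), whereas in NPCs its ratios were 1.06 and 0.856. *Kcnk9* in NPCs was higher in replicate 2 by a factor of 7.80 in B/J (5.06 to 12.5) and 2.77 in J/B (2.29 to 3.35), and *Kcnk10* by 3.34 and 1.60. The direction was thus shared by the crosses for *Kcnk5*, for *Kcnk1* in ESCs and for *Kcnk9* and *Kcnk10* in NPCs. It was also shared, with intervals that left out 1, for *Kcnk4* in ESCs (0.224 in B/J and 0.0254 in J/B). In NPCs the same held for *Kcnk3* (2.46 and 1.62) and *Kcnk6* (0.550 and 0.594), while for *Kcnk2* the ratios were 0.859 in B/J and 4.01 in J/B NPCs. The plot of replicate ratios gives all groups with at least 20 counts.

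**Figure D3:**
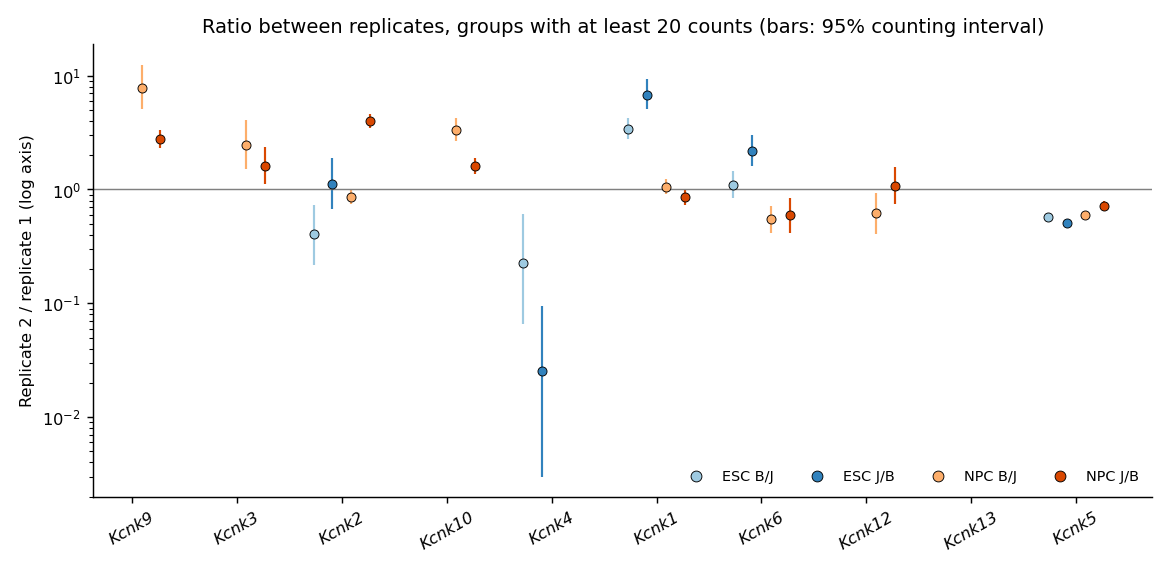
Ratio of replicate 2 to replicate 1 in TMM-normalized CPM (log axis) for each member and group with at least 20 counts over both replicates. Bars are 95% exact counting intervals and the grey line is a ratio of 1. *Kcnk9* and *Kcnk10* lie above 1 in both NPC groups, *Kcnk1* lies above 1 in both ESC groups, and *Kcnk5* lies below 1 in all 4 groups.

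Levels of different genes can be compared only per length of transcript, and for this the TMM-normalized CPM was divided by the kb of annotated exon, all exons of a gene merged. For some members the longest transcript is much shorter, with 5006 of 9278 bp for *Kcnk3* and 2537 of 4808 bp for *Kcnk4*. The order of members at close levels, such as *Kcnk3* and *Kcnk12*, and the shares given below can thus change with the length used. *Kcnk5* led in both stages, with 23.4 ± 8.76 TMM-normalized CPM per kb in ESCs and 10.5 ± 4.26 in NPCs (SD, n = 4). *Kcnk1* was the next in both, at 4.21 ± 3.14 and 3.99 ± 0.528, and its range did not overlap that of *Kcnk5*. In ESCs *Kcnk6* followed at 1.13 ± 0.354, and the other members were below 0.3. In this order *Kcnk6* was above *Kcnk2* (0.283 ± 0.0946) in every library, and *Kcnk12* above *Kcnk3*, while *Kcnk2* and *Kcnk4*, *Kcnk3* and *Kcnk13*, and the pair at the end, *Kcnk10* (0.00886 ± 0.0044) and *Kcnk9* (0.00254 ± 0.00308), overlapped.

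In NPCs the order after *Kcnk1* was *Kcnk2* (2.86 ± 1.76 per kb), *Kcnk10* (0.912 ± 0.435), *Kcnk6* (0.684 ± 0.322), *Kcnk9* (0.397 ± 0.331), *Kcnk12* (0.210 ± 0.0406), *Kcnk3* (0.165 ± 0.0677), *Kcnk13* (0.0294 ± 0.0169) and *Kcnk4* (0.0165 ± 0.016). Neighbours in this order overlapped in their libraries, except *Kcnk5* and *Kcnk1*, and *Kcnk3* and *Kcnk13*. *Kcnk2* was above *Kcnk10* in all 4 libraries even so. *Kcnk9* per length thus stood in the lower part of the family in NPCs. Its exon sequence is the longest of the 10, and which part of it carried the reads was not resolved.

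As shares of the summed level per kb of the 10 genes, *Kcnk5* made up 88.1% and 65.2% in replicates 1 and 2 of B/J ESCs and 92.3% and 65.2% in J/B ESCs. Its NPC shares were 65.4% and 51.6% for B/J and 55.2% and 35.5% for J/B. The ranges overlapped narrowly, at replicate 1 of B/J NPCs and replicate 2 of each ESC line. *Kcnk2* went from 0.96% ± 0.303 to 14.8% ± 9.92 (SD, n = 4), reaching 29.6% in replicate 2 of J/B NPCs. *Kcnk10* went from 0.0322% ± 0.0209 to 4.94% ± 2.57, and *Kcnk9* from 0.00857% ± 0.0113 to 2.18% ± 1.83. The share of *Kcnk9* was 0.199% and 2.05% for B/J NPCs and 1.86% and 4.63% for those of J/B. Without division by length it was 6.85% of the NPC sum. The summed level itself was 29.4 ± 5.81 per kb in ESCs and 19.7 ± 3.81 in NPCs, and without *Kcnk5* it was 5.97 ± 3.18 and 9.26 ± 1.85. These shares are descriptions, and they were not tested.

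**Figure D4:**
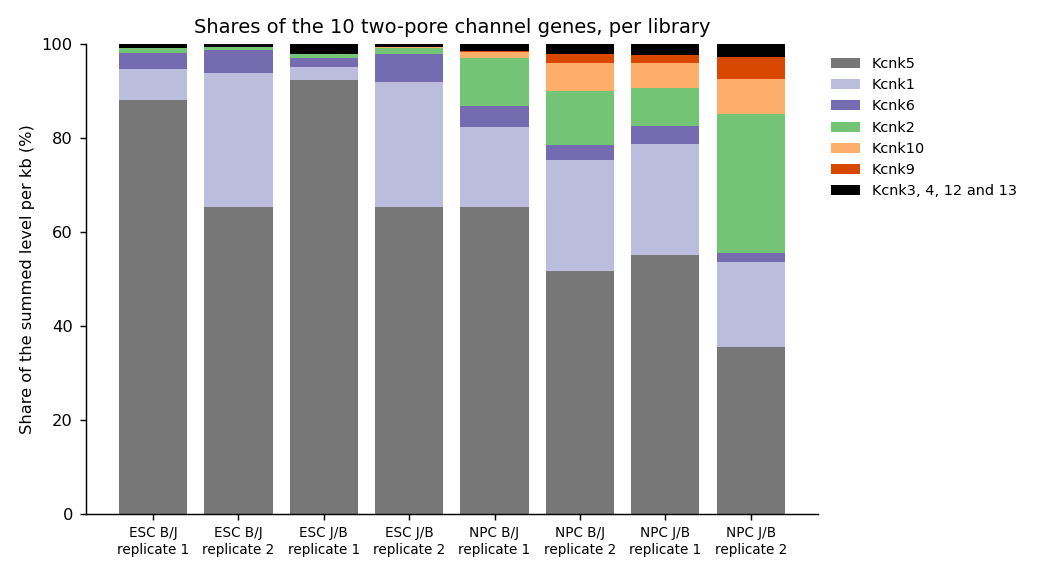
Share of each two-pore channel gene in the summed TMM-normalized CPM per kb of exon of the 10 genes (vertical axis, %), for each of the 8 libraries. The grey share of *Kcnk5* spans 65.2% to 92.3% in ESCs and 35.5% to 65.4% in NPCs, and *Kcnk2*, *Kcnk10* and *Kcnk9* together take more of the NPC bars.

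Among the 5 genes most like *Kcnk9* in their pattern over the 8 libraries were *Ccdc88a*, *Ttc3*, *B930095G15Rik* and *Ttbk1*, with a Pearson's r of 0.996 for the first and 0.993 to 0.994 for the others (log2 TMM-normalized CPM with a prior count of 2, among 14081 genes). *Ttbk1*, a tau kinase, was at 3.16, 10.2, 9.93 and 18.4 TMM-normalized CPM in the NPC libraries. It had the order of *Kcnk9*, lowest in replicate 1 of B/J and highest in replicate 2 of J/B. These 4 rose between the stages, by log2 fold changes of 1.45 to 3.59, and since the libraries fall into 2 stages genes that rose tend to have a high r. Among the members *Kcnk10* ranked 540th (r = 0.963), *Kcnk3* 1124th (0.944), *Kcnk2* 1983rd (0.913) and *Kcnk12* 2982nd (0.874). These ranks moved with the scale, that of *Kcnk10* being 1280th with a prior count of 0.5 and 658th with library totals. *Kcnk5* had the lowest r of the family (-0.87). *Peg13*, its paternally expressed neighbour on the same domain, ranked 323rd (0.972). With library totals 1 of the 5 closest genes was the same, and with a prior count of 0.5 2 of them were.

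Markers of neurons varied between the NPC libraries in the same order as *Kcnk9*. The summed neuron markers were at 322 and 1110 TMM-normalized CPM in B/J NPCs and 830 and 1699 in J/B NPCs, beside 0.684, 5.33, 4.17 and 11.5 for *Kcnk9*. In replicate 1 of B/J NPCs the sum was below every ESC library (333 to 465), with *Stmn2* at 164 to 283 in ESCs and 27.5 to 130 in NPCs. *Dcx*, a marker of young neurons, was at 62.9, 277, 162 and 387 in the same order of libraries, after 0.0428 to 0.469 in ESCs. Neural precursor markers had another order, with 381, 710, 970 and 874, and the summed trophoblast markers were highest where *Kcnk9* was lowest, at 2873, 1444, 1537 and 1006. Of this sum *Krt8* and *Krt18* made up 1367 and 865 in replicate 1 of B/J NPCs. *Prl3d1*, at 0.399, 0.670, 6.91 and 2.88, and *Prl2c2*, at 6.55, 4.98, 13.6 and 8.98, were instead highest in replicate 1 of J/B NPCs. The other markers of the list were highest in replicate 1 of B/J NPCs. With 4 libraries no test was made, and the part of the cell mixture in the level of *Kcnk9* was not tested.

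**Figure D5:**
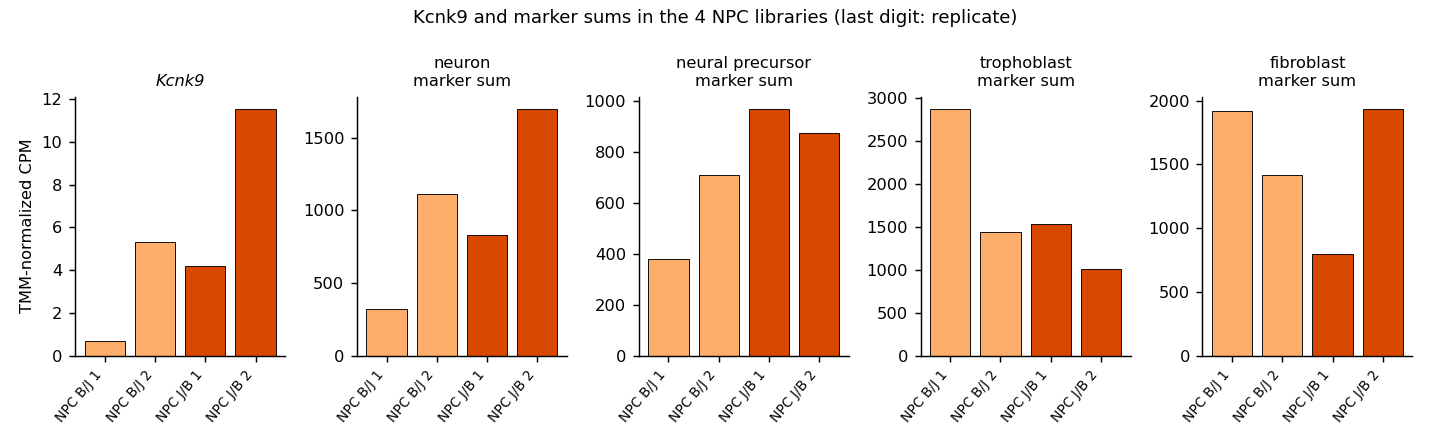
TMM-normalized CPM (linear axes starting at 0) of *Kcnk9* and of the summed markers of neurons, neural precursors, trophoblast and fibroblasts (10 genes each) in the 4 NPC libraries, 1 bar a library. *Kcnk9* and the neuron sum are lowest in replicate 1 of B/J and highest in replicate 2 of J/B, and the trophoblast sum has the opposite extremes.

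Other genes around the resting potassium current were read from lists of known parts of it. Inward rectifier channels, which also set the resting potential, were tested for 13 of 15 genes, of which 7 rose and 2 fell, beside 37.5% and 31.9% of all genes tested. Within B/J 4 rose and 2 fell, where 30.1% and 25.6% of all genes did, and within J/B 6 rose and none fell, where 29.1% and 25.3% did. The median log2 fold change was 2.39. *Kcnj2*, the classical strong rectifier, rose from 0.438 ± 0.143 to 4.94 ± 3.13 TMM-normalized CPM (SD, n = 4), a log2 fold change of 3.45 (standard error 0.519, edgeR adjusted p = 6.59e-04). *Kcnj11*, the pore of the ATP-sensitive channel, rose by 2.71 (adjusted p = 0.00125), and *Kcnj4* fell by 2.01 (adjusted p = 0.00522), from 4.78 ± 1.45 to 1.32 ± 0.860. Within J/B the log2 fold change of *Kcnj4* was -1.40 and did not pass (edgeR adjusted p = 0.0934). With the filter at a mean of 1 CPM, 5 genes were tested, of which 2 rose and 1 fell.

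The Gq-coupled receptors and their effectors, through which transmitters close TASK channels, were tested for 9 of 13 genes. Of these 7 rose and none fell (37.5% and 31.9% of all genes tested), with a median of 2.81. Within B/J 4 of the 9 rose, where 30.1% of all genes did. *Plcb1*, a phospholipase C activated by Gq, rose from 0.605 ± 0.109 to 9.63 ± 6.18 TMM-normalized CPM (log2 fold change 3.80, standard error 0.387, edgeR adjusted p = 1.00e-04). The angiotensin receptor *Agtr1a* rose by 2.33 (adjusted p = 0.0155), but within B/J its change of 1.54 did not pass (edgeR adjusted p = 0.191). It was at 1.51 and 1.02 in B/J NPCs and 4.89 and 1.65 in J/B NPCs. *Plcb1* was at 3.45 and 6.64 in B/J NPCs and 10.7 and 17.8 in J/B NPCs, so that its extremes fell in the same libraries as those of *Kcnk9*. Without replicate 2 of J/B NPCs 5 of 9 tested rose, and with the filter at a mean of 1 CPM 3 of 4.

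Proteins that bind two-pore channels or their regulators, such as the 14-3-3 proteins that bring TASK channels to the surface, were all tested, and of the 17 genes 4 rose and 8 fell (median -0.31), where 37.5% of all genes rose and 31.9% fell. This split moved with the scaling. With library totals 6 rose and 2 fell (median 0.17), and relative to *Gapdh*, *Gusb* and *Tbp* 7 rose and 2 fell (median 0.31). Of all genes tested 48.9% rose and 20.9% fell under the former and 51.6% and 17.2% under the latter, so that the share of rises in the list was below that of all genes under each scaling. *Psd*, an exchange factor for ARF6, rose from 0.930 ± 0.338 to 19.7 ± 16.7 TMM-normalized CPM (log2 fold change 4.29, standard error 0.607, edgeR adjusted p = 5.09e-04). *Akap5*, an anchoring protein of TREK channels, rose by 2.62 (adjusted p = 4.86e-04). The 14-3-3 gene *Ywhag* fell by 1.18 (adjusted p = 1.04e-04), and this fall passed under each scaling.

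The sodium-potassium pump, which makes the gradient that these channels use, rose in 2 of 7 genes tested and fell in none (median 0.15). That is no larger a share than the 37.5% of all genes that rose. *Atp1b2*, a beta subunit, rose from 16.2 ± 14.3 to 40.5 ± 10.4 TMM-normalized CPM (SD, n = 4), a change of 1.47 on the log2 scale (standard error 0.419, edgeR adjusted p = 0.0148). Replicate 1 of J/B ESCs, at 37.7, lay within the NPC range of 31.9 to 55.5. With library totals 6 of the 7 rose, where 48.9% of all genes did. Of the sodium leak channel complex, the depolarizing counterpart of the potassium leak, 4 of 5 genes were in the files and all 4 tested. Of these 3 rose (median 3.16), also under each alternative over both crosses, and 2 rose within B/J, where 37.5% of all genes rose over both crosses and 30.1% within B/J. *Fam155a* (now *Nalf1*) rose by 6.47 (standard error 0.935, edgeR adjusted p = 5.59e-04), from 0 to 0.128 TMM-normalized CPM in ESC libraries to 1.48, 5.97, 4.61 and 10.2 in NPCs. *Unc79* rose by 3.85 (adjusted p = 0.00127), with 1.94, 7.02, 5.32 and 13.2 in the NPC libraries. Both had the library order of *Kcnk9*, as did *Psd* and *Peg13*. Over all genes tested the difference between replicates 2 and 1 correlated between the crosses in NPCs (r = 0.587).

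The neighbours of *Kcnk9* on the imprinted domain of chromosome 15 moved less than it did, and only *Peg13* rose under each scaling. *Peg13* rose from 5.14 to 24.9 TMM-normalized CPM (log2 fold change 2.22, standard error 0.399, edgeR adjusted p = 0.00167), and its NPC libraries were at 11.4, 24.3, 19.4 and 44.5. *Trappc9* was at 33.7 in ESCs and 36.0 in NPCs (log2 fold change 0.10, adjusted p = 0.601). Its NPC libraries, at 31.3, 37.9, 34.7 and 40.1, had the order of *Kcnk9* over a narrower range. With library totals *Trappc9* rose by 0.58 (adjusted p = 0.0121) and relative to the 3 reference genes by 0.75 (adjusted p = 0.00873). *Chrac1* fell by 1.11 (adjusted p = 6.63e-04), by 0.63 with library totals (adjusted p = 0.01) and by 0.48 relative to the 3 reference genes (adjusted p = 0.0382). *Ago2* fell by 0.66 (adjusted p = 0.0101), the latter not relative to *Gapdh*, *Gusb* and *Tbp* (-0.01, adjusted p = 0.967) nor with library totals (-0.18, adjusted p = 0.376).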

How the data were processed

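RNA-seq counts of 8 libraries were used, 2 replicates for each of 4 groups. The authors mapped paired-end reads with TopHat2 to mm39 masked at SNPs, with a refGene-based annotation, keeping properly paired reads of mapping quality 20 or more. The submitters' processing notes also name HTSeq, DESeq2 and edgeR. The deposited files hold unnormalized counts per gene, both alleles together. The strand setting of the counting, the tool versions and which library had which of 2 kits and 2 sequencers are not stated in the sources used here. The 5 closing entries for reads without a gene were left out; reads on no feature were 5.76% to 10.9% of the library and ambiguous ones 0.355% to 0.554%.

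Counts were fitted in R 4.3.3 with edgeR 4.0.16 (TMM factors, filterByExpr with a minimum count of 10, group means, robust quasi-likelihood test, Benjamini-Hochberg adjustment over 16399 genes, threshold 0.05), with DESeq2 1.42.0 and limma 3.58.1 as alternatives. Further settings were library totals, RLE factors, factors from 3 reference genes (*Gapdh*, *Gusb*, *Tbp*), other filters, a replicate block, a threshold of 2-fold and leaving out each library. A replicate block within each stage was added after seeing the data. *Kcnk13*, outside the filter, was tested by exact permutation with a pseudocount of 0.5. Intervals are exact at the 95% level, and a floor is 3 counts. Both cover counting error only. The fits were tested on simulated data. Replicates of a group differed by more than sampling noise.

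Lengths and positions are of GENCODE vM39, and promoters of RefSeq. The members, gene lists and markers were chosen with earlier results of these data known. Named beside the members were the other family genes, the 4 other genes of the domain, the reference genes, the markers, the 5 genes closest to *Kcnk9* and, of each list, the 2 largest changes in each direction among called genes with a mean of at least 1 CPM. Some genes that this rule names are not reported here. Python 3.11 tools drew the figures.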

Additional observations from a re-analysis of the deposited data

Results flagged for a closer look

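*Kcnk13* in ESCs stood out for 1 library, replicate 2 of J/B ESCs. It was at 0.426 TMM-normalized CPM there (10 counts) and at 0 counts in the other 3 ESC libraries. Dixon's criterion for 4 samples, a gap of more than 0.829 of the range, picked it out, but with 3 libraries at 0 any count in the fourth meets that criterion, so that the value is given as a description. It was the only one of 20 groups picked out, where chance gives about 1 in 20 groups without such zeros.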

How the results depend on the processing

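Over both crosses, 5 to 8 members were called under all alternatives, always with the same 5 rises (*Kcnk2*, *Kcnk3*, *Kcnk9*, *Kcnk10*, *Kcnk12*), and no member's call changed direction. With library totals, where 5 members were called, 11438 of all genes were. With a replicate block within each stage, where 8 members were called, 12845 genes were, and the main fit called 11378. The number of falls was 0 to 3. *Kcnk4* lost its call under 9 of 16 alternatives and *Kcnk5* under 2 of 17. Without single libraries, 3 to 4 members were called within B/J and 3 to 6 within J/B, where 5700 (without replicate 2 of J/B NPCs) to 8475 genes were called. Between the crosses, DESeq2 called 11 genes for the interaction, 10 in ESCs and 70 in NPCs, and no filter on low counts gave 2 in ESCs and 5 in NPCs. The 1 gene called in NPCs was lost with library totals (0 genes), with *Gapdh*, *Gusb* and *Tbp* (0) and in most fits without a single library. Without division by length, *Kcnk9* had 0.0351% of the summed level in ESCs and 6.85% in NPCs. The scalings of *Trappc9* and the limits of *Kcnk9* within B/J without 1 NPC library were added after seeing the data. The causes of these changes were not tested.

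The replicate numbers are not stated to mark a shared culture or run. The difference between replicates 2 and 1 correlated across genes between the crosses, with r = 0.518 in ESCs and 0.587 in NPCs, but hardly between stages (0.0489 to 0.0915). With a replicate block 6 members were called over both crosses, 5 of them rises, *Kcnk4* lost its call (-3.17, adjusted p = 0.0881) and *Kcnk5* gained one within B/J (-0.68, adjusted p = 0.0146), with 0 genes called between the crosses in NPCs. A replicate block within each stage called 8 members, with *Kcnk6* among the falls, and 4 genes between the crosses in NPCs. Of all genes, 12845 were called over both crosses with this block, 12010 with the plain one and 11378 in the main fit. With 0 to 3 counts a library in ESCs, the size of the rise of *Kcnk9* and *Kcnk10* has wide limits.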
